A study of Mus musculus with 2 samples.

Results

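The genes described here are 8 genes of hepatocyte metabolism, Pck1, G6pc, Fbp1, Hal, Sds, Tat, Cyp2f2 and Hsd17b13, out of 32285 genes listed in each of 2 mouse liver libraries. They were chosen by name as genes of glucose production or of the periportal zone, and all 8 symbols were found once in both libraries. In control cells the levels of 7 of the 8 in a small cluster of 67 hepatocyte-like cells, rich in major urinary protein (Mup) transcripts and low in Glul, were 10.5 to 2917 times those in 390 deeply covered hepatocyte-like cells with high Glul. The eighth, Hsd17b13, differed by 1.67 times between the same cells. In the library from the mouse treated to delete Glul, Pck1 was higher within both clusters, and Fbp1 was higher in the deeply covered cells. Only 18 hepatocyte-like cells were recovered there, and 1 cell in each cluster carried most UMIs of the 8 genes.

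The liver lobule is fed by the portal vein and drained by the central vein, and hepatocytes along that path divide the work. Periportal hepatocytes make glucose and break down amino acids, while cells around the central vein, under Wnt and β-catenin signalling, make glutamine from ammonia through glutamine synthetase (GS, the product of Glul). Pck1 encodes cytosolic phosphoenolpyruvate carboxykinase, Fbp1 fructose-1,6-bisphosphatase and G6pc the catalytic subunit of glucose-6-phosphatase. All of these act in steps by which glucose production bypasses glycolysis. Hal begins histidine breakdown, Sds turns serine into pyruvate, and Tat begins tyrosine breakdown. Cyp2f2 is a cytochrome P450 used as a periportal marker, and Hsd17b13 is an enzyme of the lipid droplet surface.

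Both mice carried Glul f/f alleles and liver tumours, which the series title describes as β-catenin-mutant, and were taken 7 weeks after virus. AAV8-GFP went into the control mouse and AAV8-Cre into the GS-KO mouse, where AAV8 is a vector that reaches mainly hepatocytes and Cre cuts out the floxed sequence. Each group was 1 mouse and 1 library, so the groups differ by mouse, library and virus at once and no p-value is given. All intervals are 95% intervals for counting error only. The promoter driving Cre and the animals' age and strain were not given in the sources used here. Cells were selected with beads for F4/80, a macrophage surface protein, so hepatocytes were a carried-over minority of what was sequenced.

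The control library held 64770011 UMIs (molecules counted once each) in 5074 barcodes and the GS-KO library 8805330 in 1366, of which 3251 and 655 cells were used, with medians of 7320 and 4104 UMIs. Barcodes with more than 20% mitochondrial UMIs, which were left out, made up 35.5% and 50.8% of the 2 libraries, and the cells used shared no barcode. The marker rule for hepatocytes was met by 2 clusters. The deep hepatocyte-like cluster, led by Cyp2a5, Cyp1a2 and Cyp2a4, had 390 control cells with a median of 51270 UMIs and 12 GS-KO cells with 10146. The Mup-rich hepatocyte-like cluster, led by Serpina1c, Mup3 and Mup9, had 67 control cells with a median of 3096 UMIs and 6 GS-KO cells with 7513. A further cluster of 206 control and 48 GS-KO cells with medians of 1617.5 and 1926 UMIs, led by Gnmt, Hspb1 and Igfbp1, met only 1 hepatocyte marker and is called the shallow unnamed cluster. Its name depended on the settings: with the 8 genes kept among those used for clustering, hepatocyte-like cells numbered 663 control and 66 GS-KO.

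Glul, the targeted gene, checked the labels. Its level, in UMIs scaled to the same total for every cluster and library (counts per 1e+06 UMIs, CPM), was 3127 (3104 to 3150) in deep control cells and 44.4 (22.2 to 79.4) in deep GS-KO cells. The Mup-rich cells had 99.7 (79.1 to 124) in the control and 0 of 54201 UMIs in the GS-KO library, and the shallow cells 3244 and 270. The labels are met by these values, although it was not tested whether the counted 3′ end lies inside the deleted part.

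On the GRCm38 (mm10) assembly, with GENCODE M21 annotation, the 8 are protein-coding genes on separate loci. Pck1 lies at chr2:173153048-173159273, G6pc at chr11:101367561-101377903, Fbp1 at chr13:62864753-62888282 and Hal at chr10:93488768-93519304. Sds lies at chr5:120476526-120483932, Tat at chr8:109990437-109999803, Cyp2f2 at chr7:27119909-27133660 and Hsd17b13 at chr5:103955440-103977410. Promoter sequences from RefSeq (GRCm38.p6) were matched for 7 of the 8 genes, and those of Pck1, Fbp1 and Hal, on which the results below turn, are shown. Each is the stretch of up to 200 bases before the start, read 5′ to 3′ on the gene's strand, without bases inside the GENCODE gene. Capitals mark matches to any of 9 short motifs, searched on both strands.
Pck1 (chr2:173152873-173153047, plus strand): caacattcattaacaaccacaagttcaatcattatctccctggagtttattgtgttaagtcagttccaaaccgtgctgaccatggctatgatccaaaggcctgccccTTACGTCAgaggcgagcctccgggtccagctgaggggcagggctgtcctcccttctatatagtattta
Fbp1 (chr13:62888283-62888482, minus strand): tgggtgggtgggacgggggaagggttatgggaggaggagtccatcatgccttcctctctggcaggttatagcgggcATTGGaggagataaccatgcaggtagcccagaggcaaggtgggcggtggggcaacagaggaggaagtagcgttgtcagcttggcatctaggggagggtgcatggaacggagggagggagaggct
Hal (chr10:93488568-93488767, plus strand): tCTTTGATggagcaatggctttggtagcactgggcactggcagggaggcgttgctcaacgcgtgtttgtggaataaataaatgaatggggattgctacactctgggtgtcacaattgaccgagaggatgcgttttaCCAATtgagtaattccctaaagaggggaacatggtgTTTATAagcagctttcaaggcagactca

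The Pck1 stretch holds TTACGTCA, a variant of the cAMP response element, at -93 to -86 from the start in the RefSeq table, a motif that 0.405% of 32851 mouse promoter windows of 200 bases hold. Fbp1 holds CCAAT on the reverse strand, found in 29.3% of windows. Hal holds CTTTGAT, a TCF/LEF core, found in 2.45%, with CCAAT and a reverse TATAAA, the latter found in 9.96%. No match overlapped another. The full element TGACGTCA was in 1.47% of windows, the forkhead core TGTTTAC in 2.51% and the C/EBP palindrome TTGCGCAA in 0.134%. An HNF1 site was in 0.00913% and a glucocorticoid response element in 0.265%. The Tat window held CCAAT at 3 places. Both the TATA box and the TCF/LEF core were found in that of G6pc, and none of the 9 motifs in those of Cyp2f2 and Hsd17b13. A match describes the letters only.

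Among control cells the enzymes of glucose production were set apart by cluster, though not to the same degree. Pck1 had 433 UMIs in 41 of 67 Mup-rich cells, a level of 540 CPM (490 to 593), against 22 UMIs in 13 of 390 deep cells, 0.954 CPM (0.598 to 1.44). The ratio was 566 (369 to 912), and the shallow cells lay between, at 7.62 CPM (2.80 to 16.6). B-like cells, which should lack hepatocyte transcripts, had 1.11 CPM (0.134 to 4) of Pck1, so Pck1 in deep control cells was no higher than in B-like cells. Pck1 was also among the leading genes of the Mup-rich cluster although it had been left out of the clustering. Across single Mup-rich control cells its level ran from 0 through a median of 311 to 3521 CPM.

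Fbp1, which removes a phosphate from fructose-1,6-bisphosphate, was present in every hepatocyte group. It had 662 CPM (607 to 721) in Mup-rich, 56.3 (53.3 to 59.5) in deep and 59.7 (43.9 to 79.4) in shallow control cells, against 2.21 (0.603 to 5.67) in B-like cells. The Mup-rich level was 11.8 times (10.6 to 13) the deep level, and deep and shallow cells did not differ beyond counting error. G6pc, the last step to free glucose, had 202 CPM (172 to 236) in Mup-rich, 16.7 (15 to 18.4) in deep and 11.4 (5.23 to 21.7) in shallow control cells, a Mup-rich over deep ratio of 12.1 (10.0 to 14.6). Of its UMIs in Mup-rich control cells, 25.3% came from 1 cell.

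The enzymes of amino acid breakdown split the same way. Sds had 203 UMIs in 17 of the 67 Mup-rich control cells, 253 CPM (219 to 290), and 2 UMIs among 23052188 in the deep cells, a ratio of 2917 with a counting interval of 797 to 24251. Hal had 103 CPM (82.4 to 128) in Mup-rich and 0.434 (0.208 to 0.798) in deep control cells, a ratio of 239 (123 to 516), and 38.6% of its Mup-rich UMIs were in 1 cell. Tat had 461 CPM (415 to 511), 43.9 (41.2 to 46.6) and 53.4 (38.5 to 72.1) in Mup-rich, deep and shallow control cells. The Tat ratio of Mup-rich over deep was 10.5 (9.31 to 11.9), so Tat, like Fbp1 and G6pc, kept a measurable level in deep cells that Pck1, Hal and Sds did not.

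Cyp2f2 had 396 CPM (354 to 443) in Mup-rich and 2.13 (1.57 to 2.81) in deep control cells, a ratio of 187 (138 to 257), with 1 cell holding 30.8% of the Mup-rich UMIs. Hsd17b13 had 76.0 CPM (58.2 to 97.7) in Mup-rich, 45.6 (42.9 to 48.5) in deep and 19.1 (10.7 to 31.4) in shallow control cells. Its Mup-rich over deep ratio of 1.67 (1.27 to 2.16) was the smallest of the 8, and 36.1% of its Mup-rich UMIs were in 1 cell. Mup-rich cells held most control UMIs of 3 of the 8 genes, 95.8% for Sds, 87.3% for Pck1 and 79.7% for Cyp2f2. They held 28.5% for G6pc, 27.6% for Fbp1, 25% for Tat, 21.8% for Hal and 5.35% for Hsd17b13.

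**Figure D1:**
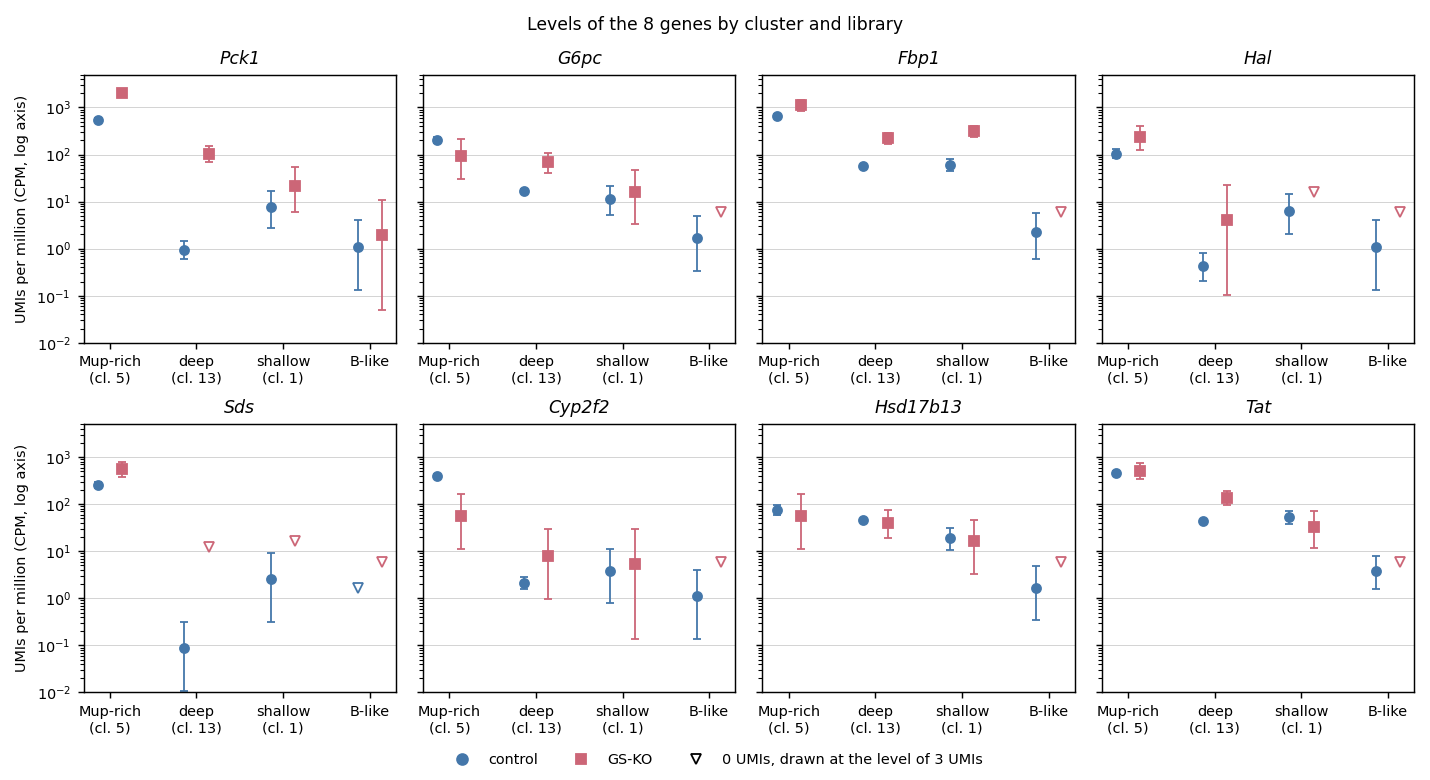
Level of each gene in CPM (log axis) in the Mup-rich, deep and shallow clusters and in B-like cells, control as circles and GS-KO as squares, bars 95% Poisson intervals and open triangles 0 UMIs drawn at the level of 3 UMIs. Control levels of Pck1 fall from 540 CPM in Mup-rich to 0.954 in deep cells, while Hsd17b13 lies at 76.0 and 45.6.

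Cells of different depth show a gene at different rates, so detection was compared after each cell was thinned to 1000 UMIs, which left out 14 Mup-rich control cells. In the control library Fbp1 was then seen in 26 of 53 Mup-rich cells, 49.1% (35.1 to 63.2), and in 20 of 390 deep cells, 5.13% (3.16 to 7.81), against 73.1% and 68.2% before thinning. Tat was seen in 43.4% and 3.59% and Pck1 in 39.6% and 0.256% of the same cells. Hsd17b13 was seen in 5.66% (1.18 to 15.7) and 5.90% (3.77 to 8.72), but in 7.46% and 1.28% after thinning to 500 UMIs and in 15.4% and 7.03% after thinning to 2000, so no order is read from these shares. Mup-rich control cells showed a median of 2 of the 8 genes and at most 6, while 85.9% of deep control cells showed none. Among 456 B-like control cells 99.1% showed none.

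Control hepatocyte-like cells were next ordered by Glul itself, after thinning each to 5000 UMIs, into 33 cells with 0, 79 with 1 to 4 and 271 with 5 or more Glul UMIs. All 8 genes were higher with 0 than with 5 or more Glul UMIs, with the interval of the ratio above 1. Pck1 had 370 CPM (283 to 475), 45.6 and 0.738 in the 3 classes, the last from 1 UMI, so the ratio was 501 with a counting interval of 86.6 to 20106. Fbp1 fell from 594 (482 to 724) through 134 to 58.3 CPM and Tat from 327 through 86.1 to 36.2. Hal had 97.0 CPM (55.4 to 157) with 0 and no UMI with 5 or more Glul UMIs. Set against 3 UMIs over that class the ratio was 43.8, and the lower 95% bound of the ratio itself was 31.7. Hsd17b13 showed the smallest difference, 97.0 against 37.6 CPM, a ratio of 2.58 (1.37 to 4.59).

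Cluster and Glul class overlap, since 19 of the 33 cells with 0 Glul UMIs were Mup-rich. Within the deep cluster alone 6 of the 8 genes were still higher with 0 Glul UMIs, and for 4 of them the interval stayed above 1. Those 4 were Pck1 at 24.0 times (2.75 to 287), G6pc at 7.27 (1.98 to 22.7), Tat at 3.59 (1.80 to 6.62) and Fbp1 at 3.30 (1.67 to 6.06). The Pck1 ratio rests on 3 UMIs that were all in 1 of 17 cells, against 2 UMIs in 272 cells. Hal and Sds had no UMI in either class there. The classes are ranges of 1 gene's count and not cell types. Both mice carried liver tumours, described as β-catenin-mutant. Whether cells with high Glul were tumour cells or lay around the central vein was not tested.

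**Figure D2:**
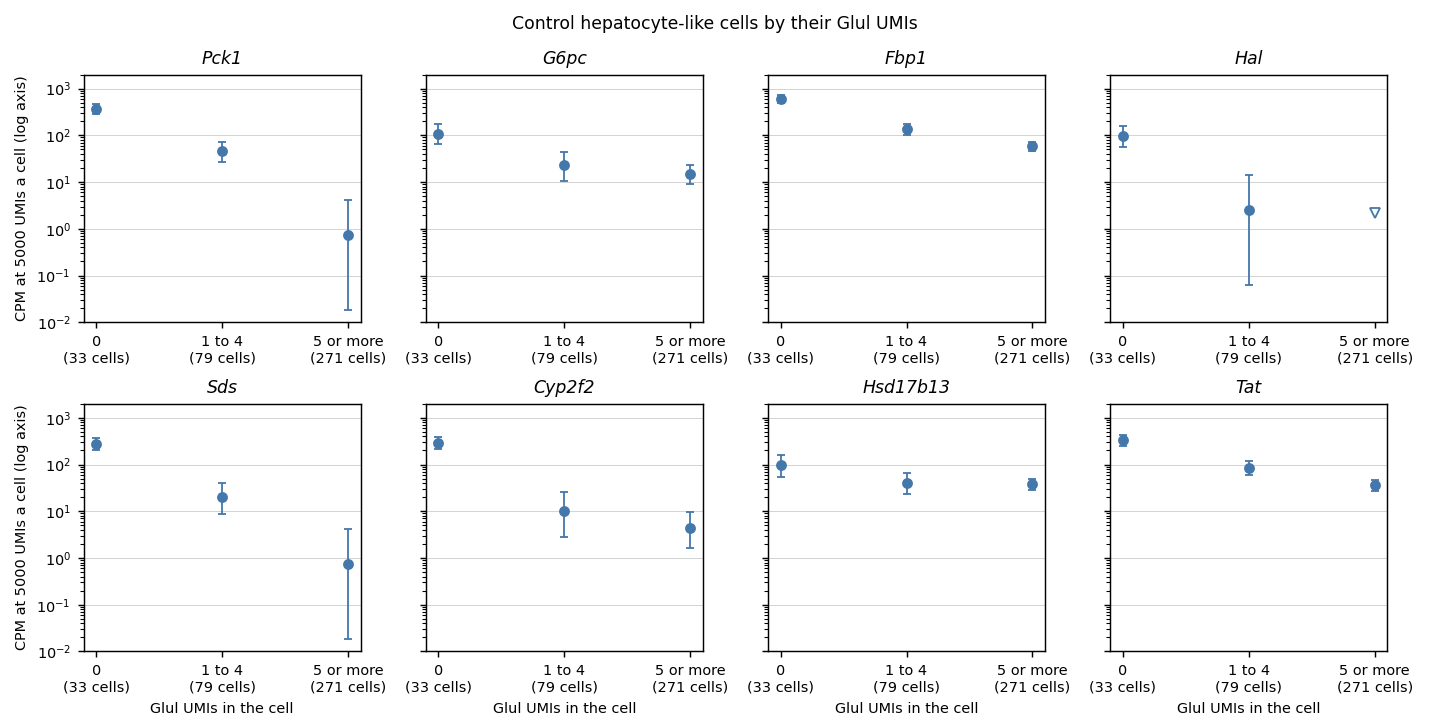
Level of each gene in CPM (log axis) in control hepatocyte-like cells with 0, 1 to 4 or 5 or more Glul UMIs after thinning to 5000 UMIs, with 95% Poisson intervals; the open triangle marks 0 UMIs, drawn at the level of 3 UMIs. Every gene is highest in the 33 cells without a Glul UMI, and Hsd17b13 shows the smallest difference, 97.0 against 37.6 CPM.

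Over 383 control hepatocyte-like cells thinned to 5000 UMIs, Pearson's r of log counts between 2 of the 8 genes had a median of 0.39 over 28 pairs, from 0.096 to 0.83. The highest was between Pck1 and Sds, and Pck1 with Hal gave 0.78. Hsd17b13 gave 0.096 with Sds and 0.15 with Pck1. Within the deep cluster the median over the 15 pairs that could be computed was 0.051. These cells share 1 library, and the values are a description of sparse counts.

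By a rule on the highest correlation over 4204 genes, the genes most alike were mostly shared. Ass1, a urea cycle enzyme of periportal cells, was the closest to Pck1 (r = 0.74), Fbp1 (0.67) and Sds (0.66), and the second to Hal and G6pc. Serpina1d led for Hal (0.61), Serpina1a for Cyp2f2 (0.52) and Serpina1c for Tat (0.60), all protease inhibitors secreted by hepatocytes. Mat1a, which makes S-adenosylmethionine, led for G6pc (0.41) and was second for Tat. No gene passed r = 0.3 with Hsd17b13, whose highest was 0.23.

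Between the libraries, Fbp1 was the gene whose difference was spread over the most cells. In deep cells it had 56.3 CPM in the control and 222 (167 to 289) in the GS-KO library, where 11 of 12 cells had at least 1 UMI, a ratio of 3.94 (2.95 to 5.16). In shallow cells it had 59.7 and 313 CPM (237 to 404), from 58 UMIs in 17 of 48 GS-KO cells, a ratio of 5.24 (3.5 to 7.86) with at most 19.0% of the UMIs in 1 cell. In Mup-rich cells it had 662 and 1107 CPM (845 to 1425), a ratio of 1.67 (1.26 to 2.19). With each cell thinned to 1000 UMIs the Mup-rich level was 868 CPM (635 to 1158) in the control and 667 (182 to 1707) in the GS-KO library. Without 1 cell the Mup-rich ratio was 1.32 (0.920 to 1.85). Neither value tells a Mup-rich difference from counting error, and both are too imprecise to show that it is absent.

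Pck1 was higher in the GS-KO library in both hepatocyte-like clusters. Deep cells had 0.954 CPM in the control and 105 (68.5 to 154) in the GS-KO library, a ratio of 110 (59.9 to 203), but the GS-KO UMIs were in 3 of 12 cells. Mup-rich cells had 540 and 1993 CPM (1635 to 2406), a ratio of 3.69 (2.96 to 4.57), with a UMI in each of the 6 cells. In shallow cells 6 control and 4 GS-KO UMIs gave 7.62 and 21.6 CPM, a ratio of 2.83 whose interval of 0.587 to 11.9 holds no direction.

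The other genes differed between the clusters or could not be told from counting error. G6pc had 16.7 and 68.6 CPM in deep control and GS-KO cells, a ratio of 4.12 (2.37 to 6.68), but 202 and 92.2 in Mup-rich cells, a ratio of 0.457 (0.146 to 1.09). Tat had a ratio of 3.13 (2.15 to 4.4) in deep and 1.12 (0.734 to 1.65) in Mup-rich cells. Sds in Mup-rich cells was at 253 and 553 CPM, a ratio of 2.19 (1.44 to 3.22), and Hal at 103 and 240, a ratio of 2.32 (1.18 to 4.18). Cyp2f2 had 396 and 55.3 CPM in Mup-rich cells, the latter from 3 UMIs, a ratio of 0.140 (0.0286 to 0.412). Hsd17b13 gave ratios of 0.884 (0.423 to 1.63) in deep, 0.728 (0.146 to 2.23) in Mup-rich and 0.849 (0.157 to 3.00) in shallow cells, so no difference was detectable at this depth.

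Single GS-KO cells carried much of these differences. In the deep cluster 1 cell with 82324 UMIs, 16.5% of them mitochondrial, held 97 of the 145 UMIs of the 8 genes, and in the Mup-rich cluster 1 cell with 11914 UMIs held 133 of 250. Without that cell the deep ratio of Fbp1 was 3.00 (1.99 to 4.36), with UMIs in 10 of 11 cells, and that of Pck1 38.0 (12.6 to 96.6), from 6 UMIs in 2 cells. The deep ratios of G6pc and Tat became 0.725 (0.0875 to 2.64) and 0.689 (0.223 to 1.61). Of the 165564 deep UMIs then left, 78042 were in 1 further cell, which held 4 UMIs of the 8 genes. Deep values of other genes given below without the 1 cell can therefore still rest largely on that further cell, which was not tested. Without the Mup-rich cell Pck1 kept a ratio of 1.97 (1.42 to 2.68), while Fbp1 gave 1.32 (0.920 to 1.85), Sds 0.561 (0.203 to 1.24) and Hal 0.914 (0.243 to 2.43). Cyp2f2 in Mup-rich cells gave 0.179 (0.0367 to 0.528), but its UMIs lay in Mup-rich GS-KO cells of low depth. Before thinning, Cyp2f2 was seen in 33.3% of GS-KO and 32.8% of control Mup-rich cells, whose median depths were 7513 and 3096 UMIs. With each cell thinned to 500 UMIs it was seen in 0 of 6 GS-KO cells, 0% (0 to 45.9). In control cells it was then seen in 8 of 67, 11.9% (5.30 to 22.2). The 2 GS-KO cells with a UMI, of 3765 and 1272 UMIs in total, had 531 and 786 CPM. Over both clusters its log2 ratio was 0.11 in the sum and 2.77 with each cell thinned to 1000 UMIs, so no direction is read for it.

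**Figure D3:**
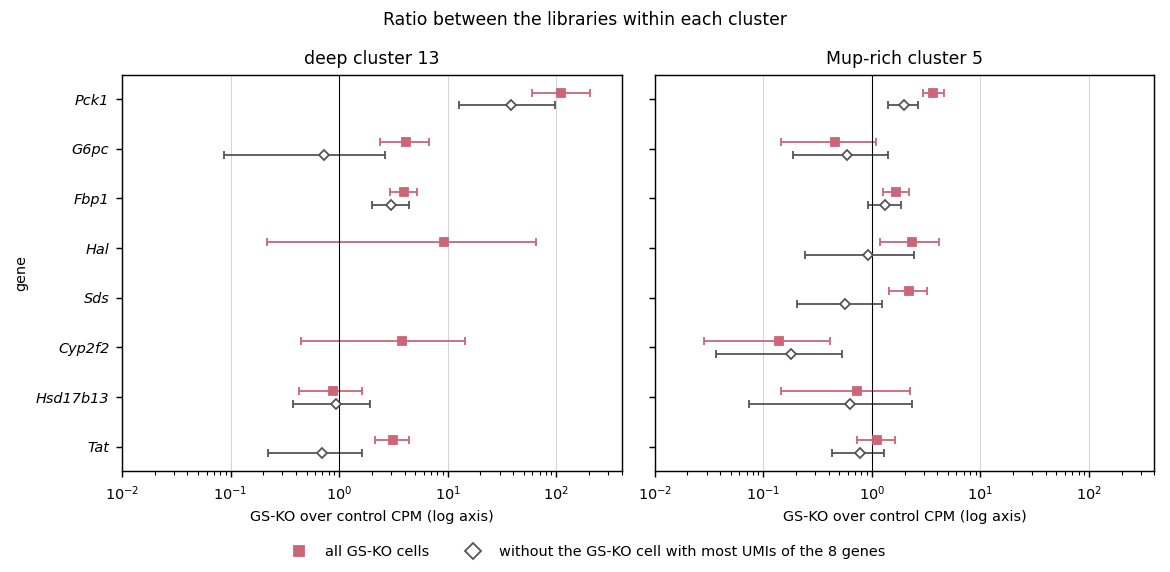
Ratio of GS-KO over control CPM (log axis) for each gene in the deep and the Mup-rich cluster, with all GS-KO cells (squares) and without the GS-KO cell with most UMIs of the 8 genes (diamonds), bars 95% intervals for counting error; ratios with 0 GS-KO UMIs are not drawn. In the deep cluster G6pc moves from 4.12 to 0.725 and Tat from 3.13 to 0.689, while Fbp1 moves from 3.94 to 3.00.

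**Figure D4:**
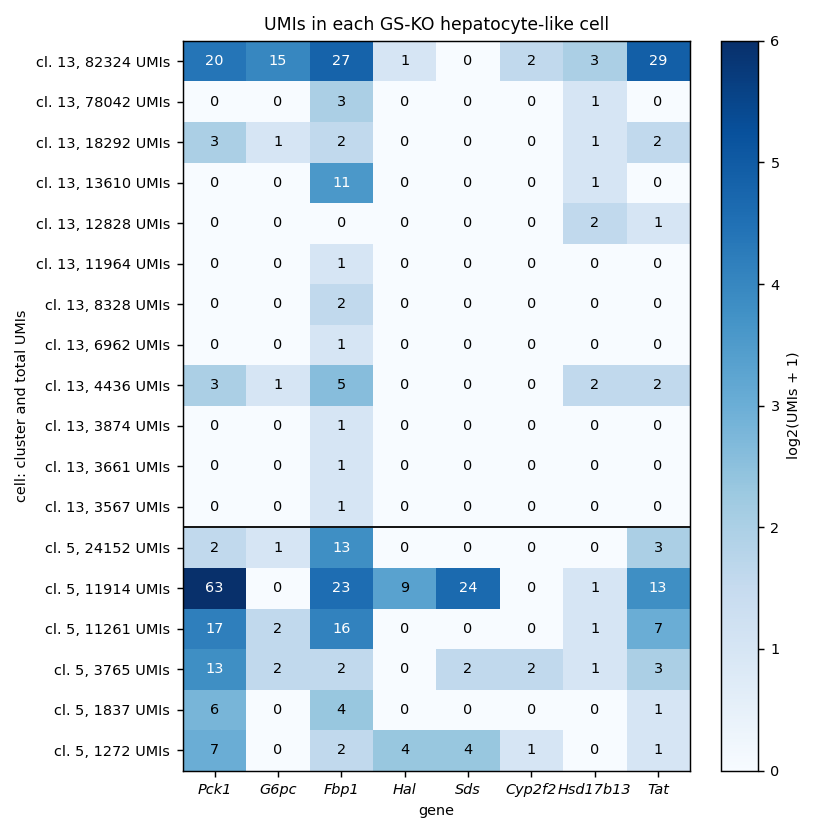
UMIs of the 8 genes in each of the 18 GS-KO hepatocyte-like cells, rows ordered by depth within cluster 13 (deep, above the line) and cluster 5 (Mup-rich, below), shading log2(UMIs + 1). The deepest cell of cluster 13 holds 29 Tat and 15 G6pc UMIs, and 1 cell of cluster 5 holds 63 Pck1 and 24 Sds UMIs.

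Counted as genes at least 2-fold apart with at least 20 UMIs, 5 of the 6 genes measured in deep cells were higher in the GS-KO library and none lower, where 11.2% of 11287 genes were higher and 30.4% lower. Without the 1 cell, 2 of 6 were higher (Pck1 and Fbp1) and 1 lower (Cyp2f2, at 0 UMIs), where 13.5% of genes were higher and 37% lower. That Cyp2f2 call holds no direction, since the interval of its ratio ran from 0 to 10.9. In Mup-rich cells 3 of 8 were higher and 2 lower, where 16.4% and 18.8% of 3832 genes were, and without the 1 cell none was higher and 1 lower, where 15.6% and 23% were. In shallow cells, where only Fbp1 and Tat were measured, Fbp1 was higher, as were 5.22% of 4463 genes, and none was lower, as were 13.4%. Summed over both hepatocyte-like clusters, 6 of 8 were higher and none lower, where 11.1% of 11388 genes were higher and 27.6% lower, and 4 of 8 without the 2 cells, where 13.1% were higher. That sum mixes clusters: Mup-rich cells gave 3.36% of control and 17.9% of GS-KO hepatocyte-like UMIs, so a gene of that cluster is higher in the GS-KO sum even where neither cluster differs.

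The median log2 ratio of GS-KO over control was 1.94 for the 6 genes in deep cells, against -0.20 for all genes measured, and 0.45 for the 8 in Mup-rich cells, against 0.08. Without the 1 cell these medians were -0.29 in deep cells, against -0.32 for all genes, and -0.52 in Mup-rich cells, against -0.05. Depth and other transcripts moved with the libraries as well. Deep cells were less deeply covered in the GS-KO library, 10146 against 51270 UMIs at the median, and the summed level of 12 cell division markers was 976 CPM in control and 242 CPM in GS-KO deep cells. Of 14 macrophage markers 12 were lower in deep GS-KO cells, 9 of them at 0 UMIs, Adgre1, Csf1r and Cd68 included, while Apoe made up 19171 and 16649 CPM. The mitochondrial share had medians of 5.87% and 4.24% in deep cells. Their part in the differences was not tested.

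The other genes of these pathways were described by lists, counted in deep cells as at least 2-fold apart. Those counts are to be read against all genes measured there, of which 11.2% were higher and 30.4% lower, or 13.5% and 37% without the 1 cell. These shares include genes of few UMIs: of the 4234 genes with at least 500 UMIs, 181 were higher and 474 lower with all cells. Of 25 measured genes for the remaining steps of glucose production, 4 were higher and 2 lower in the GS-KO library, and without the 1 cell 5 and 0. Gpi1, the isomerase shared with glycolysis, had 139 and 303 CPM, a ratio of 2.18 (1.71 to 2.75) and 2.97 without the 1 cell. Eno1, an enolase, had a ratio of 2.20 (1.71 to 2.78). Mdh1, a malate dehydrogenase, had a ratio of 0.902 (0.753 to 1.07). Of 25 regulators 5 were higher and 1 lower, but 6 and 7 without the 1 cell. Igfbp1, whose product binds insulin-like growth factors, had 36.0 and 133 CPM, a ratio of 3.70 (2.53 to 5.24) that was 4.37 without the 1 cell. Hnf4a, a transcription factor of hepatocytes, had a ratio of 0.829 (0.573 to 1.16), and 0.365 (0.175 to 0.672) without the 1 cell.

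Among genes that oppose glucose production, 3 of 15 were higher and 2 lower in deep GS-KO cells, and 2 and 4 without the 1 cell. Mlxipl, the carbohydrate response factor, had 59.3 and 16.1 CPM, a ratio of 0.272 (0.0740 to 0.698). In Mup-rich cells Scd1, a fatty acid desaturase, had 4537 and 1993 CPM, a ratio of 0.439 (0.359 to 0.532), which without the 1 cell was 0.553 (0.451 to 0.670), no longer 2-fold. There 6 of 13 of the list were lower, as were 18.8% of all genes.

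Of the genes that follow Hal in histidine breakdown or use histidine, 3 of 4 measured were higher in deep GS-KO cells, and 2 of 4 without the 1 cell. Ftcd, which hands the last fragment to folate, had 12.8 and 84.7 CPM, a ratio of 6.60 (4.02 to 10.3) and 7.53 (4.25 to 12.4) without the 1 cell. Uroc1, the urocanase, had 7 GS-KO UMIs there, a ratio of 6.20 (2.43 to 13.2). In the serine, glycine and threonine list 3 of 13 were higher and 1 lower, and 3 and 2 without the 1 cell. Gnmt, which methylates glycine, had 66.4 and 851 CPM in deep cells, a ratio of 12.8 (11.1 to 14.8), and 4.10 (2.97 to 5.51) without the 1 cell. In shallow cells, where no cell was left out, Gnmt had 155 and 841 CPM, a ratio of 5.42 (4.25 to 6.93). Of 14 genes that break down tyrosine, phenylalanine or tryptophan none was higher and 1 was lower. Kmo, of the tryptophan route, was that gene, with a ratio of 0.271 (0.0992 to 0.590). Of 13 lipid droplet genes 1 was higher and 3 lower, or 2 and 2 without the 1 cell. Plin2, a droplet coat protein, was among the 3, with 295 and 129 CPM, a ratio of 0.437 (0.299 to 0.618), and 0.511 (0.331 to 0.755) without it, no longer 2-fold.

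Other periportal genes were higher in deep GS-KO cells in 10 of 23 cases and lower in 2, and in 10 and 4 without the 1 cell. Uroc1 and Ftcd are on this list as well as on that of histidine breakdown, so the counts of these lists overlap. Ass1 had 65.3 and 960 CPM, a ratio of 14.7 (12.8 to 16.9) and 5.92 (4.53 to 7.60) without the 1 cell. Arg1, the last enzyme of the urea cycle, had 8.98 and 299 CPM, a ratio of 33.2 (25.1 to 43.6) and 9.42 (5.06 to 16.2) without it. In shallow cells Arg1 had 16.5 and 108 CPM, a ratio of 6.53 (3.09 to 14.3). Alb had a ratio of 1.34 (1.29 to 1.39) in deep cells, and 1.05 (0.993 to 1.11) without the 1 cell. Pericentral genes were lower in 7 of 24 cases and higher in none, and without the 1 cell in 5 and 2. With all cells 30.4% of all genes were lower, but only 474 of the 4234 genes with at least 500 UMIs. Cyp1a2 had 6684 and 2868 CPM, a ratio of 0.429 (0.398 to 0.462), and 0.598 (0.553 to 0.646) without the 1 cell, no longer 2-fold. Of 14 β-catenin targets 7 were lower and none higher, and 6 and 1 without the 1 cell. Ccnd1, a cyclin, had 198 and 56.5 CPM, a ratio of 0.286 (0.156 to 0.480), and 0.366 (0.189 to 0.641) without the 1 cell. In Mup-rich cells 4 of 23 other periportal genes were higher and 5 lower, near the 16.4% and 18.8% of all genes, and 1 and 6 without the 1 cell, where 15.6% and 23% of all genes were.

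Hal was the only one of the 8 with most of its UMIs outside hepatocytes, a pattern noticed after its values were seen. Of 415 Hal UMIs, 303 (73.0%) lay outside the hepatocyte-like and shallow clusters. An unnamed cluster led by Retnla, Ms4a7 and Gpnmb met 10 macrophage markers, more than of any other class. Its Hal level was 52.2 CPM (45.0 to 60.2) in the control, from 189 UMIs in 30 of 205 cells, at most 19.6% in 1 cell. In the GS-KO library it was 63.7 (37.1 to 102), from 17 UMIs in 4 of 20 cells, with 35.3% in 1 cell. The same cells had 0.828 CPM of Pck1 and 1.10 of Fbp1 in the control and no UMI of either in the GS-KO library. Uroc1, the next enzyme, had 1 UMI there in the control and none in the GS-KO library. Amdhd1, also on the histidine list, had 10 UMIs there in the control, 2.76 CPM, and none in the GS-KO library. A Kupffer-like cluster of 63 control cells, led by cell division genes such as Top2a, had 18.1 CPM of Hal, but 96.7% of the 30 UMIs were in 1 cell, and B-like cells had 1.11 (0.134 to 4).

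**Figure D5:**
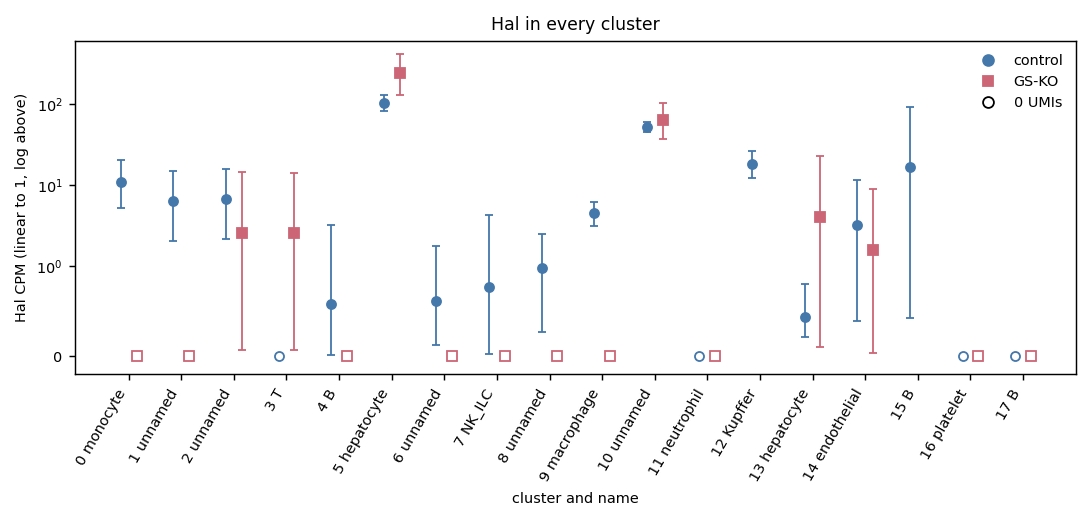
Hal level in CPM in each cluster (axis linear to 1 and log above), control as circles and GS-KO as squares with 95% Poisson intervals, open symbols 0 UMIs, and clusters without cells in a library left blank. The Mup-rich cluster 5 lies at 103 and 240 CPM, the unnamed cluster 10 at 52.2 and 63.7, and the deep hepatocyte-like cluster 13 at 0.434 and 4.03.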

How the data were processed

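Cell Ranger and mm10 are named in the submitters' processing notes, and the deposited matrices hold raw UMI counts per gene and barcode (software version 3.1.0, per the file headers). The labels name 3PrimeV2 chemistry and once single nuclei, which was not settled here. Kept barcodes had 500 or more UMIs, 200 or more genes and no more than 20% of UMIs from mitochondrial genes, and Scrublet (expected rate 0.05) removed 24 control and 7 GS-KO doublets. Cells of both libraries were clustered together without batch correction, since library and group coincide: counts scaled to 10000, log transform, 2000 variable genes without the 8 genes, 30 principal components, 15 neighbours and Leiden at resolution 1 with seed 1. Leiden ran until the partition no longer improved, a setting kept after clusters from other settings had been seen. A marker counted in a cluster at 2 times the CPM of other cells (10 CPM added) and in 20% of cells. A name needed 3 markers and more than any other class. It also needed that no other class had more markers among the cluster's 10 leading genes. Tools were Python 3.11.15, scanpy 1.11.5, igraph 0.11.9, numpy 2.4.6, scipy 1.17.1 and pandas 2.3.3.

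UMIs were summed per cluster and library as CPM, with exact Poisson intervals, conditional binomial intervals for ratios and Clopper-Pearson intervals for shares, all at 95%. UMIs make PCR copies count once, and the 3′ kit counts each transcript near its end. Log2 ratios used a prior count of 0.5, and a fold of 2 was called with at least 20 UMIs. No test between groups exists with 1 mouse each. The 8 genes and the lists were chosen with earlier results of these data known. From each list the 4 genes with most UMIs and 3 with the ratio interval clear of 1 by most could be named, ranked by the bound nearest 1 although the rule's wording was the bound farthest from 1. The motifs, the spread of Hal over clusters and the runs without single cells were chosen after values were seen. The code was tested on simulated counts, where a 4-fold decrease came out slightly too large, and the tolerance of that test was widened after it first failed.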

Additional observations from a re-analysis of the deposited data

Results flagged for a closer look

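G6pc and Cyp2f2 were on opposite sides of 1 in the 2 hepatocyte-like clusters. The GS-KO over control ratio of G6pc was 4.12 in deep and 0.457 in Mup-rich cells, and that of Cyp2f2 was 3.8 in deep and 0.14 in Mup-rich cells. The difference between the clusters was not tested. The deep value of Cyp2f2 came from 2 GS-KO UMIs, both in the cell with 82324 UMIs, which also held 15 of the 17 G6pc UMIs.

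Barcodes left out for more than 20% mitochondrial UMIs, as CPM of their other UMIs, also carried the 8 genes. In the 848 control and 314 GS-KO barcodes among them with at least 500 UMIs and 200 genes, the ratio was 1.92 (1.35 to 2.69) for Pck1, 2.24 (1.58 to 3.12) for Cyp2f2 and 2.18 (1.39 to 3.33) for Hsd17b13. Tat went the other way, with 160 CPM in control and 55.2 CPM in GS-KO barcodes, and Fbp1 gave 93.3 and 93.9. These barcodes were not sorted into cell types.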

How the results depend on the processing

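No paired analysis was possible because each group was 1 library, and for the same reason no replicate could be left out. The count of 6 of 8 genes higher in the GS-KO library was 3 in Mup-rich cells only, and between 4 and 6 under the other alternatives. The count lower was 0, but 1 with cells of at least 5000 UMIs and 2 in Mup-rich cells only. The median log2 ratio of 2.07 became 1.56 with a mitochondrial limit of 10%, 2.48 without doublet removal, 1.72 at Leiden resolution 0.5 and 1.55 as a mean over cells. It was 0.45 in Mup-rich cells only and 1.24 without the GS-KO cell with most UMIs of the 8 genes in each cluster. The last 2 alternatives, the sum with shallow cells and a run with 2 Leiden iterations (6 of 8 higher, median 2.06) were chosen after seeing the data. Of the 6 genes called higher, 2 turned direction: G6pc was at -1.12 in Mup-rich cells only, and Sds at -1.60 in deep cells only, where it had 2 control and 0 GS-KO UMIs, so the prior count sets that value. Pck1 and Fbp1 stayed above 0 in 17 of 17 alternatives, as did Hal and Tat. Cyp2f2, at 1.08 times in the sum, was above 0 in 8 and Hsd17b13, at 0.922 times, in 3, and neither was called. None of these alternatives took 1 cluster without its cell with most UMIs of the 8 genes. There the ratio of Tat was 0.689 in deep and 0.769 in Mup-rich cells. Hal had no GS-KO UMI in deep cells and 0.914 in Mup-rich cells, while Pck1 and Fbp1 stayed above 1 in both clusters. The Mup-rich ratio of Fbp1, 1.32, had an interval of 0.920 to 1.85, which holds 1. The cause of these shifts was not tested. The genes higher without Glul numbered 8 at 2000 UMIs and 6 within deep cells. Only 18 GS-KO hepatocyte-like cells limit every ratio.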

Other observations

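At a finer resolution of 2, 90 control cells and 1 GS-KO cell formed a cluster led by cell division genes such as Ube2c and Cdca3. In those control cells Pck1 had 1.09 CPM (0.436 to 2.24), Tat 36.4 (31.9 to 41.4), Fbp1 53.8 (48.3 to 59.8) and Hsd17b13 62.7 (56.7 to 69.1), beside 2646 CPM of Glul. Dividing hepatocyte-like cells of the control thus had the low Pck1 of the deep cluster. For Hsd17b13, control cells of the cluster led by Csad and Meg3 at this resolution had 41.2 CPM (37.9 to 44.7). Those of the cluster led by Gsta4 and Gstm2 had 27.3 (22.0 to 33.6), and those of the Mup-rich cluster 76.0 (58.2 to 97.7).

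Apoa4, an apolipoprotein on the periportal list, was higher in GS-KO Mup-rich cells with and without the cell with most UMIs of the 8 genes. It had a GS-KO over control ratio of 5.46 (4.62 to 6.44), and 6.93 (5.86 to 8.18) without that cell, which held 1.01% of its UMIs. That cell was not picked for Apoa4, and the deepest of the 5 cells left held 24152 of their 42287 UMIs. Whether another single cell carried the Apoa4 difference was not tested.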
